A study of Homo sapiens with 5 samples.

Results

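Isolated, taller peaks of NRF2 binding after sulforaphane were examined in BEAS-2B, an immortalised cell line from human bronchial epithelium. The peaks were selected on measured values of the SFN list, its summit heights and the spacing of its rows. A peak was counted when it lay on chromosomes 1 to 22 or X, reached a summit of at least 10 tags and had no other peak of the same list within 10 kb on either side. Of the 1925 peaks in the sulforaphane (SFN) list, 532 met this rule. NRF2 had been recovered by chromatin immunoprecipitation and sequencing (ChIP-seq) from 2 samples given 10 µM D,L-sulforaphane for 5 h and 2 samples given 0.1% DMSO, the vehicle, for 5 h, with 1 vehicle sample precipitated with IgG, 5 samples in all. All came from this single line, which carried no stated genetic change, and the labels do not tell separate cultures from repeat preparations. The values were 1 peak list per treatment in hg19 coordinates, so no value per sample, no spread between replicates and no test between treatments could be given. The SFN list held 7448599 tags once copies at the same position had been removed and the vehicle list 1459665, a ratio of 5.10.

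NRF2 is a transcription factor that KEAP1 normally marks for destruction. Electrophiles such as sulforaphane modify KEAP1, NRF2 then accumulates in the nucleus, and with a small MAF partner it binds antioxidant response elements. Its known targets make glutathione, reduce quinones and peroxides, store iron, supply NADPH and export conjugates, and airway epithelium relies on them against inhaled oxidants.

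The core of the antioxidant response element, TGACNNNGC read on either strand, was looked for in the RefSeq promoters (GRCh38.p14) of the 22 known targets named beside peaks below, as a view of the letters NRF2 is known to read. Of these genes 13 were matched by symbol, with 19 promoter windows running from 250 bases before to 50 after a start. The core was present in 6 of the 19 windows (31.6%), belonging to 5 genes, and in 13.3% of all 35116 windows of the same length. By gene, 5 of the 13 had it in at least 1 window, against 16.1% of all 27305 genes with such windows. No core was found in the windows of NQO1, TRIM16, MAFG, FTL, TKT, SRXN1, GCLC and SQSTM1. The difference was not tested. Since the build differs from that of the peaks, the windows were not placed on the peaks, and a match describes letters and not a bound site. Of the 9 matches, the 8 that begin before the start are shown with 10 bases on each side, 5′ to 3′ on the strand that carries the core, with the core in capitals.
ME1: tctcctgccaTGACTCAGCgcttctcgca
GCLM: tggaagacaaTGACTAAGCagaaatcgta
KEAP1, one match: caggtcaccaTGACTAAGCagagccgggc
KEAP1, another match: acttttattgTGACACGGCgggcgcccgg
TXNRD1, one promoter window: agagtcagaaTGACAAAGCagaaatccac
TXNRD1, another window: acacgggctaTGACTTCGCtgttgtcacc
TXNRD1, that same window: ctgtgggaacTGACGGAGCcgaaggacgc
EPHX1: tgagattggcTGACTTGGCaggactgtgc
The ME1 match also holds TGACTCA, the site of the AP-1 factors, which either strand of 4.95% of all windows holds. GCLM and one KEAP1 match have the same 9 letters in the core.

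The 532 peaks were mostly low and narrow, with a tail of tall ones. Their heights, which are tags piled up at the summit and which the rule used, ran from 10 to 163 tags with a median of 15.5, with quartiles at 12 and 25 tags. The lowest class, 10 to 14 tags, held 230 peaks, and 109 had 15 to 19 tags. A further 87 peaks reached 20 to 29 tags and 59 reached 30 to 49, and the remaining 47 had at least 50. The fold named with some peaks is the authors' value, the height over the local control as the caller gave it. At the edge of the rule, 70 isolated peaks had exactly 10 tags and 80 had 9. Their median widths were 174 and 173 bp. Examples just inside were chr2:8369782-8369979 and chr9:21591689-21591905, both with a fold of 7.74, and just outside chr10:5062585-5062760 and chr3:39680875-39681048, both with a fold of 7.03. On the side of spacing, the closest case kept was chr19:48447806-48448179, with a gap of 10223 bp, and the closest case left out was chr19:48437105-48437583, with a gap of 9894 bp.

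Width followed height. The median width was 216 bp, and the narrowest peaks were 153 bp, which is the fragment length the caller used. It was 184.5 bp at 10 to 14 tags, 224 bp at 15 to 19, 238 bp at 20 to 29, 281 bp at 30 to 49 and 368 bp at 50 tags or more. Of the 532 peaks 223 were under 200 bp and 17 over 500 bp. The widest was chr5:9903-11880 at 1978 bp, followed by chr16:90061339-90062489 at 1151 bp, which had only 23 tags. The summit lay at a median of 49.4% of the width from the peak's start, but its position ran from 3.95% to 97.5%, and 443 of the 532 summits lay in the middle 50% of the width.

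The peaks differed widely in their local control level as the caller set it, which is not a direct count of control tags under the peak. The level of the control at each peak was derived from the deposited fold and height. Expressed relative to the genome average, it had a median of 2.48 and reached 134. It was under 3 at 323 peaks (60.7%), from 3 to 10 at 143 (26.9%) and 10 or more at 66 (12.4%). The control level was higher among the tallest peaks, in part by construction, since a call needs a height above its control. The lowest of the 66 peaks at 10 or more had 19 tags. At 50 tags or more, 10 peaks lay under 3, 15 from 3 to 10 and 22 at 10 or more. The median of the caller's fold was 8.36, 6.57 and 3.86 in the groups in order of rising control level, and a fold of 20 or more was reached by 20, 10 and 0 peaks. Height alone therefore did not separate peaks far above their control from peaks standing on a high one.

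Peaks beside known NRF2 targets were found at low and middle control levels and not at the highest. Gene names here come from textbook knowledge of where these genes lie on the chromosomes, since no hg19 annotation was used, and whether a peak lies in an exon, intron or promoter was not determined. From 6 lists of known targets, 22 of 40 genes had an isolated taller peak at their known place, 25 peaks in all, and no such peak was placed at the other 18. Their heights ran from 10 to 152 tags with a median of 39, against 15.5 over all 532, and their median fold was 15.5 against 7.74. Of the 25 peaks 9 lay at a control level under 3 and 16 from 3 to 10, and the highest was 9.41. None lay among the 66 peaks at 10 or more. Over all 532 peaks the shares were 60.7% under 3, 26.9% from 3 to 10 and 12.4% at 10 or more. The 25 thus lay under 3 less often than the 532 did, and the highest class was small to begin with. The lists were drawn up with results of these data known and height chose the peaks, so these values describe the 25 and are no test of them.

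Peaks were placed at 10 of the 15 genes listed for antioxidant defence and drug metabolism. NQO1, which reduces quinones, had the tallest, chr16:69760632-69761102, with 122 tags in the SFN list and 7 tags in the vehicle list. ALDH3A1, an aldehyde dehydrogenase, had 75 tags at chr17:19656311-19656659, and TXNRD1, the cytosolic thioredoxin reductase, had 67 at chr12:104680146-104680898, a peak 753 bp wide. Neither had a vehicle peak. The peaks at GCLM and GCLC, the subunits of the enzyme that starts glutathione synthesis, were lower. GCLM had 39 tags at chr1:94374899-94375228, and GCLC had 24 at chr6:53412970-53413189 and 13 at chr6:53480530-53480707. SLC7A11, which imports cystine for glutathione, had 12 tags at chr4:139156709-139157094, at the lowest control level the caller allows and with a fold of 9.14. EPHX1, the microsomal epoxide hydrolase, had 39 tags (chr1:226005419-226005694). GSR, glutathione reductase, had 31 (chr8:30585347-30585547), SRXN1, sulfiredoxin, 29 (chr20:634020-634277) and PRDX1, a peroxiredoxin, 23 (chr1:45987602-45987798). Of the 11 peaks of this list, NQO1's overlapped a vehicle peak and the other 10 did not, where 67 of all 532 peaks (12.6%) overlapped one.

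HMOX1, heme oxygenase, belongs to the same list but is not among the 532. Its known upstream region held peaks of 67 tags (chr22:35767885-35768272) and 46 tags (chr22:35772878-35773294), which lay 4606 bp apart and so failed the rule on spacing. A further TXNRD1 peak of 41 tags, chr12:104613145-104613462, was left out in the same way by a neighbour 343 bp away.

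Both ferritin subunits that store iron had tall peaks. FTH1, the heavy chain, had 92 tags at chr11:61739292-61739675 against 5 in the vehicle list, at a control level of 1.92. FTL, the light chain, had 72 tags at chr19:49467062-49467394 at a control level of 8.78, and no vehicle peak. The fold was 51.4 at FTH1 and 15.5 at FTL, so the gap in fold was far wider than that in height. Of the iron genes looked for, SLC48A1, FECH and BLVRB had no isolated taller peak placed beside them.

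Genes of NADPH supply and the pentose phosphate pathway had 4 peaks at 2 of 5 genes. TKT, the transketolase of that pathway, had 103 tags at chr3:53304037-53304471 and 58 at chr3:53270216-53270521, with 11 and 7 in the vehicle list. ME1, malic enzyme, had 24 tags at chr6:84140791-84141007 and 10, the lowest height the rule admits, at chr6:84037522-84037674. Neither ME1 peak overlapped a vehicle peak.

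Transporters had peaks at 3 of 6 genes and none overlapped a vehicle peak, as was the case for 465 of all 532 peaks. ABCC3, an exporter of conjugates, had 65 tags at chr17:48739112-48739479, SLC6A6, the taurine transporter, 40 at chr3:14452202-14452515, and ABCC1, another exporter, 16 at chr16:16115992-16116144. Among regulators of the pathway, MAFG, a small MAF partner of NRF2, had 88 tags at chr17:79881357-79881640 and 14 in the vehicle list. KEAP1 had 37 tags at chr19:10613352-10613553, and SQSTM1, the adaptor p62 that binds KEAP1, had 21 at chr5:179246530-179246684. KEAP1 and SQSTM1 had the highest control level of the 25 peaks, 9.41, and folds of 7.64 and 4.42. TRIM16 and TRIM16L, a tripartite motif gene and its near copy, had 143 tags (chr17:15546128-15546627) and 152 tags (chr17:18625074-18625566), each with 12 in the vehicle list. Tags from near-identical copies can be assigned to the wrong one, and this was not tested. A peak of 45 tags at TXN, thioredoxin (chr9:113019102-113019408), was outside the lists and was picked out after its value was seen.

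**Figure D1:**
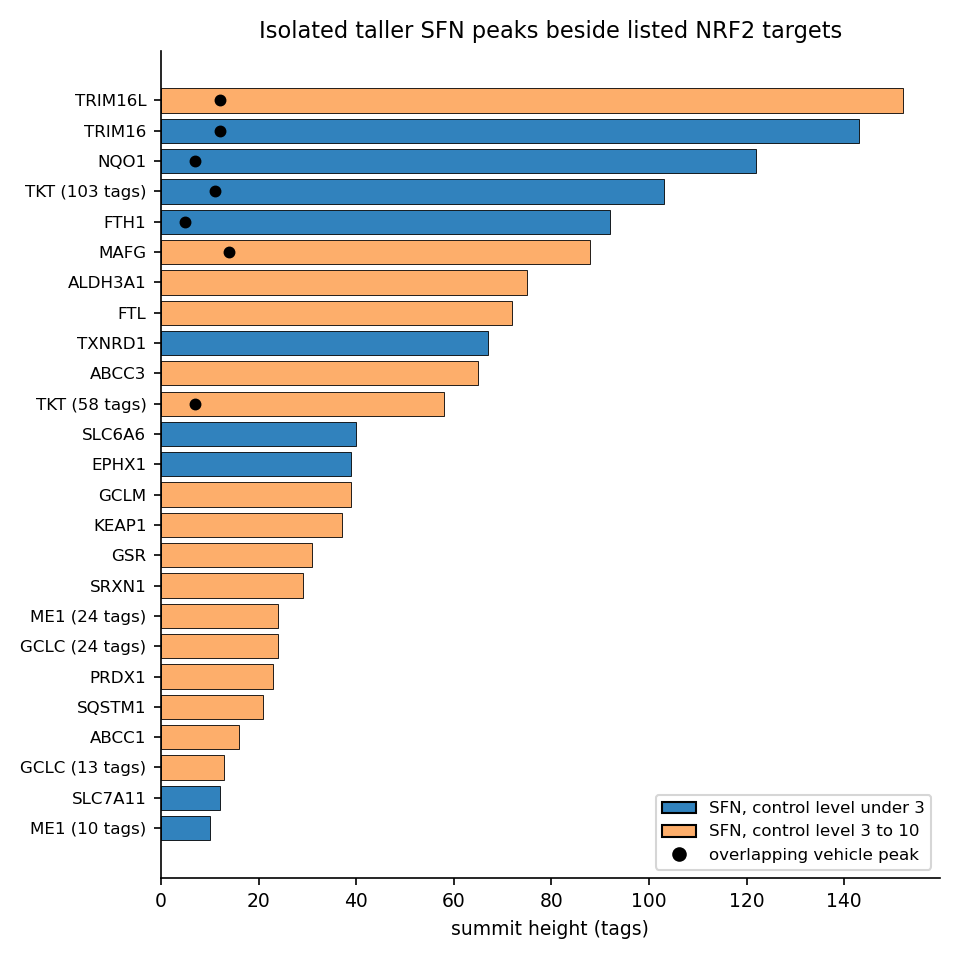
Summit height in tags of the 25 isolated taller SFN peaks beside 22 listed NRF2 targets (bars, coloured by local control level), with the height of the overlapping vehicle peak as a black point where there is 1. Heights run from 10 tags at ME1 to 152 at TRIM16L, and the 7 vehicle points all belong to peaks of 58 tags or more.

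**Figure D2:**
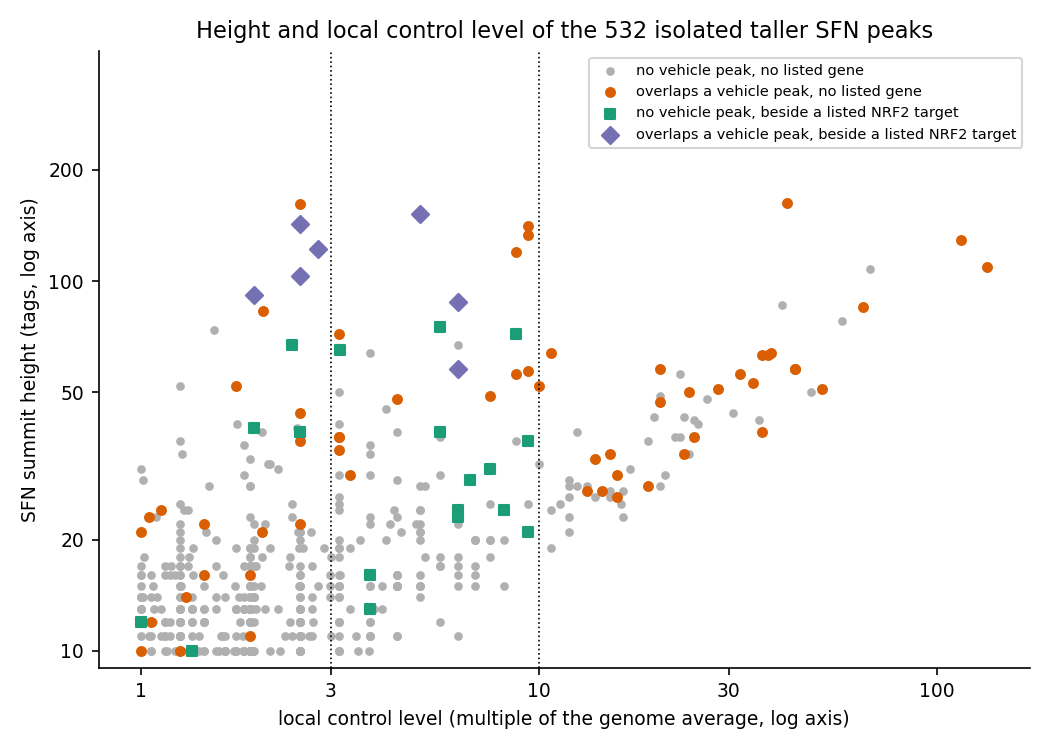
Summit height in tags against the local control level as a multiple of the genome average, both on log axes, for the 532 peaks, with dotted lines at 3 and 10. The peaks beside listed targets all lie left of the line at 10, as do most of the 532. The peaks to its right form a band in which height rises with the control. Part of this rise is built in, since a call needs a height above its control.

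Many tall peaks on a low control were not beside a gene named above. At a control level under 3, 26 peaks had 30 tags or more, and 7 of them were beside such genes. The tallest of the others was chr16:88366742-88367282. It reached 162 tags against 10 in the vehicle list, and its fold, 79.2, was the highest of the 532. Examples of lower ones were chr14:106208117-106208669 with 74 tags, chr4:8305274-8305663 with 52 and chr8:62634443-62634759 with 52, of which the one on chromosome 4 overlapped a vehicle peak of 7 tags. Chromosome 14 held 2 further peaks of this kind, chr14:106091318-106091598 with 41 tags and chr14:106110099-106110384 with 36. All 3 lie in the cluster of immunoglobulin heavy chain constant genes, a place noticed after the values were seen, and none overlapped a vehicle peak. The constant genes of that cluster are close copies of one another, so the assignment of tags among them is uncertain. Lower in this set, from 44 down to 30 tags, were among others chr17:78228596-78228882 with 40, chr3:25623769-25624003 with 39, chr2:29353233-29353499 with 37 and chr5:57555615-57555983 with 34. Below these came chr6:31789885-31790148 with 33 tags, chr1:90372285-90372509 and chr9:132332980-132333247 with 32 each, and chr6:37027098-37027396 and chr7:43612141-43612449 with 31 each.

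The peaks on the highest control levels were tall at a low fold. The tallest of all 532, chr2:33141202-33141650, had 163 tags, but its control level was 42.0, its fold 8.75 and its vehicle peak 142 tags high. The peak chr3:196625546-196625868 had 129 tags at a control level of 115 and a fold of 2.63, and chr21:9827346-9827557 had 109 tags at a level of 134 and the lowest fold, 1.92. Not every such peak had a vehicle peak: chr1:236260348-236260746 (108 tags, level 67.8), chr13:110076402-110076767 (86 tags, level 40.8) and chr1:91852744-91853099 (78 tags, level 57.7) had none. Another was chr21:11186359-11186813 (85 tags, level 65.3, 26 vehicle tags). Whether repeated sequence underlies these places was not tested. Also among the 25 tallest, but at a middle control level and a higher fold, was chr12:95263-95838 (72 tags, level 3.14, fold 31.4, 20 vehicle tags). The same held for chr20:48909175-48909501 (67 tags, level 6.27, fold 18.6, no vehicle peak).

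Of the 532 peaks, 67 shared 1 bp or more with a vehicle peak (12.6%, exact Clopper-Pearson 95% interval 9.89 to 15.7, counting error alone). The background over all 1925 SFN peaks was 37.9%, over those on chromosomes 1 to 22 and X 33.2%, and over all 885 isolated SFN peaks 7.91%. The share was 0.85% among the 353 isolated peaks under 10 tags and 59.8% among the 856 peaks of 10 tags or more that were not isolated. Isolated taller peaks thus lay between these groups, and the differences were not tested because each treatment has 1 list. Peaks without an overlap seldom had a vehicle peak close by: of 465, 3 had one within 500 bp and 11 (2.37%) within 10 kb.

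The share that overlapped was higher among peaks of 20 tags or more than among lower ones, and, with all heights together, higher where the control was high. At 10 to 14 tags 5 of 230 overlapped (2.17%, exact interval 0.71 to 5.0), and at 15 to 19 tags 2 of 109 did (1.83%, interval 0.223 to 6.47). At 20 to 29 tags there were 11 of 87 (12.6%, interval 6.48 to 21.5). The share reached 16 of 59 at 30 to 49 tags (27.1%, interval 16.4 to 40.3) and 33 of 47 above that (70.2%, interval 55.1 to 82.7). By control level, 22 of 323 peaks under 3 overlapped (6.81%, interval 4.32 to 10.1). From 3 to 10 there were 17 of 143 (11.9%, interval 7.08 to 18.4). Where the level reached 10, 28 of 66 did (42.4%, interval 30.3 to 55.2). Height and control level moved together, in part by construction, and within a class of height the share did not rise steadily with the control. In order of rising control, 5 of 199 and 0 of 31 overlapped at 10 to 14 tags, and 2 of 68, 0 of 40 and 0 of 1 at 15 to 19 tags. At 20 to 29 tags there were 6 of 30, 1 of 37 and 4 of 20, and at 30 to 49 tags 2 of 16, 7 of 20 and 7 of 23. At 50 tags or more there were 7 of 10, 9 of 15 and 17 of 22. The exact intervals within each class are wide and overlap, and the shares of 0 of 31 and 0 of 40 allow up to 11.2% and 8.81%. Of the 25 peaks beside listed targets, 7 overlapped (exact interval 12.1% to 49.4%). They were 7 of the 11 with 50 tags or more and 0 of the 14 below, which allows a share of up to 23.2% (exact). A missing vehicle peak is a missing call at 1459665 kept tags and does not measure an absence of binding.

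**Figure D3:**
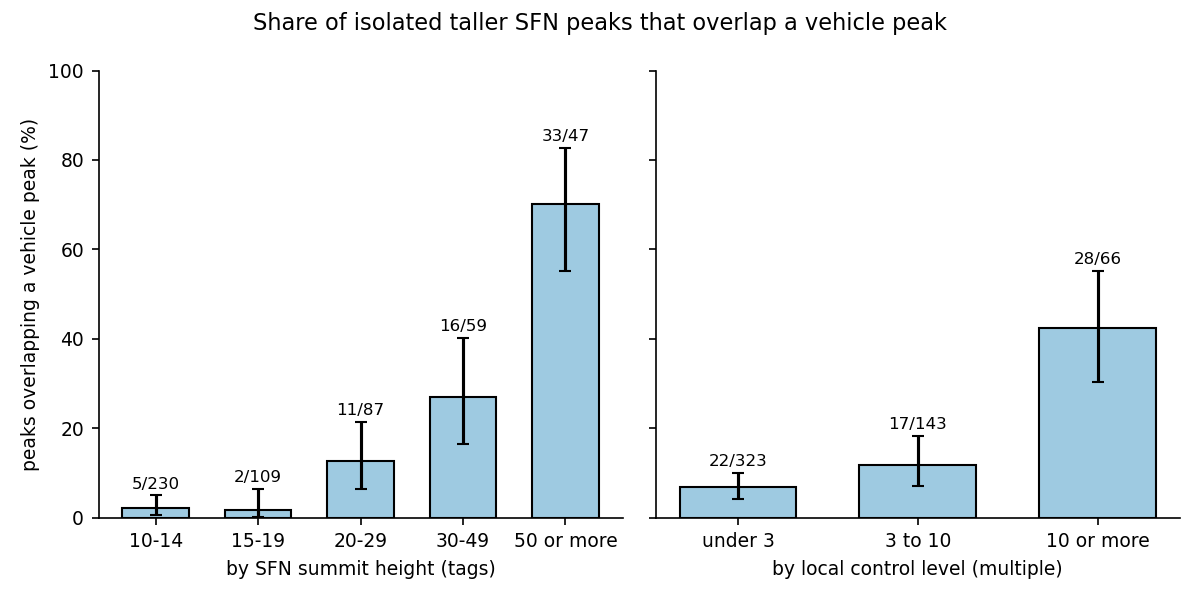
Percent of isolated taller SFN peaks that overlap a vehicle peak, by summit height in tags (left) and by local control level (right), with exact 95% intervals as error bars and the counts above them. The share is 70.2% at 50 tags or more and about 2% below 20 tags, and it is 42.4% at a control level of 10 or more.

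At the 67 shared places, heights scaled to depth, as tags per 1000000 kept tags, were set side by side. This scale does not allow for unequal efficiency of the precipitations or for the unequal share of tags removed as copies. A ratio of 1 on it therefore does not mark equal binding, and a ratio below 1 does not show a loss of binding. Counts of peaks above or below 1, here and further on, describe this scale alone. The vehicle peaks had from 4 to 142 tags, with a median of 13, and the SFN peaks from 10 to 163, with a median of 49. After scaling, the SFN peak was the higher at 13 of the 67 places, and the ratio of SFN to vehicle had its lowest value at 0.225 and a median of 0.562. A vehicle peak of 4 tags, the lowest of the 67, equals 20.4 SFN tags on this scale, so a shared SFN peak below that height, of which there were 7, could not come out above 1.

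All 7 shared peaks beside listed genes were among the 13 places where the scaled SFN height was greater, as were 6 of the other 60. These 7 all had 58 SFN tags or more. The lists were drawn up with results of these data known and height chose the peaks, so this describes the 7 and is no test of them. FTH1 had a ratio of 3.61, with a scaled height of 12.4 in SFN and 3.43 in vehicle. The ratio was 3.42 at NQO1, 2.48 at TRIM16L, 2.34 at TRIM16, 1.83 and 1.62 at TKT, and 1.23 at MAFG. Examples of the rest of the 13 were chr16:88366742-88367282, with a ratio of 3.17, chr4:8305274-8305663 at 1.46, chr6:88433050-88433351 at 1.21, chr4:9949-10271 at 1.14 and chr6:28322004-28322256 at 1.08. Where the control level was at least 10, none of the 28 shared peaks had the greater scaled height in SFN, and the ratio ran from 0.225 to 0.669. The lowest vehicle peak among these 28 had 9 tags, a scaled height of 6.17. An SFN peak below that scaled height could not come out above 1 here, so the count is partly set by the calling. The lowest ratio was at chr2:33141202-33141650, with a scaled height of 21.9 in SFN and 97.3 in vehicle.

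**Figure D4:**
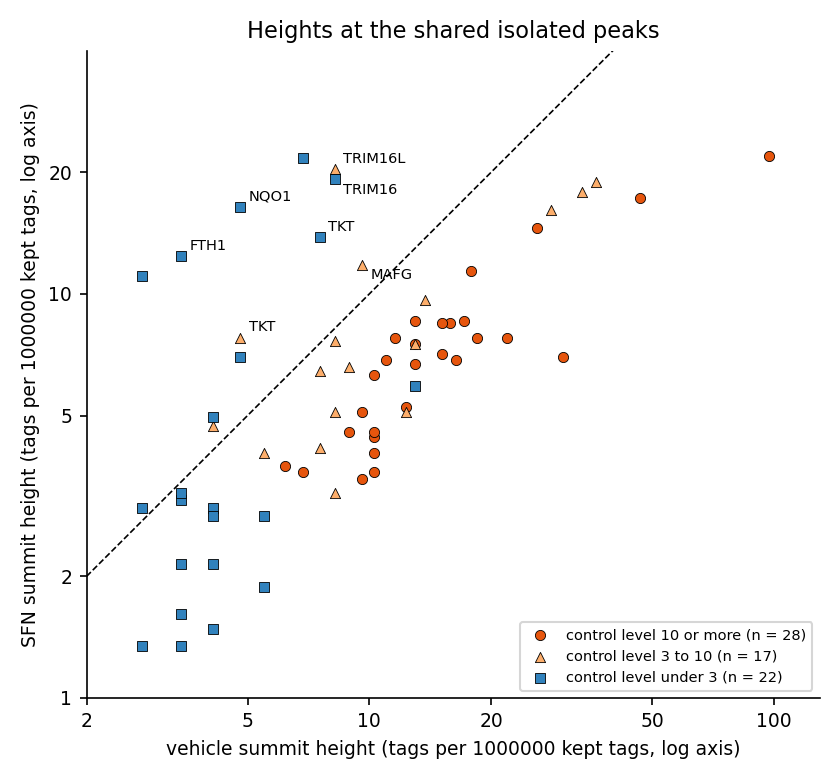
Summit height in the SFN list against that in the vehicle list, in tags per 1000000 kept tags on log axes, at the 67 shared places, with marker and colour giving the local control level and a dashed line where both are equal. The named targets lie above the line with ratios from 1.23 to 3.61, and the 28 whose control level is at least 10 lie below it.

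Shared peaks on a low control had from 162 down to 10 tags. Of the 22 at a control level under 3, all had a higher fold in the SFN list, with medians of 16.1 and 6.06, and 9 had the greater scaled height there. On a control this low the fold follows the raw tag count, so the deeper SFN list tends to have the greater fold. The count of 22 therefore does not compare binding between the treatments. Of those with the lower scaled height in SFN, chr15:102521097-102521439 had 44 tags in SFN and 19 in vehicle. Others of these were chr17:58547144-58547439 with 24 and 5 tags, chr1:31643711-31643958 with 22 and 6, chr16:25059914-25060135 with 21 and 6, and chr2:182140408-182140722 with 21 and 8. A pair at the cluster of mu-class glutathione S-transferase genes on chromosome 1, a place noticed after the values were seen, had 16 and 5 tags (chr1:110261989-110262224) and 14 and 8 tags (chr1:110285720-110285875). The rest of those given here were chr11:72640089-72640246 with 16 and 6 tags, chr8:55121965-55122163 with 12 and 5, chr1:160445413-160445566 with 11 and 6, chr15:101076155-101076342 with 10 and 5 and chr3:29725278-29725462 with 10 and 4.

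Summits of shared peaks mostly lay close together, in part by construction, since the peaks overlap and are narrow. The median distance between the SFN and vehicle summits was 14 bp, and 45 of 67 lay within 50 bp. The median was 8 bp at a control level of 10 or more and 17 bp in both lower classes, so closeness was not particular to low-control peaks. The summits were 1 bp apart at FTH1, 4 bp at MAFG, 5 bp at TRIM16L and 7 bp at TRIM16. They were 11 and 59 bp apart at the TKT peaks and 77 bp at NQO1. The widest separation, 754 bp, was in the widest peak, chr5:9903-11880. The vehicle peak also stood alone within 10 kb of its own list at 62 of the 67 places. The exceptions all lay at a control level of 10 or more, where it stood alone at 23 of 28. The places were selected for having no SFN neighbour within 10 kb, and the share over all vehicle peaks was not computed, so this count describes these places alone.

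Every chromosome from 1 to 22 and X held isolated taller peaks. Chromosome 1 had the most, 55, and chromosome 13 the fewest, 4. Related to the span between the outermost peaks of either list, chromosomes 17 and 19 had the highest density, with 3.33 and 3.05 peaks per 10 Mb, and chromosome 13 had the lowest, 0.42, followed by chromosome X with 1.04. The makeup differed: 29 of the 35 peaks on chromosome 3 (82.9%) lay at a control level under 3, against 5 of 18 on chromosome 19 (27.8%) and 2 of 10 on chromosome 21. With only low-control peaks, chromosome 17 stood at 2.22 per 10 Mb and chromosome 19 at 0.847. Isolated taller peaks were 58.3% of the SFN peaks of chromosome 3 but 15.4% of those of chromosome 4, 15.5% of chromosome X and 16.3% of chromosome 10.

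**Figure D5:**
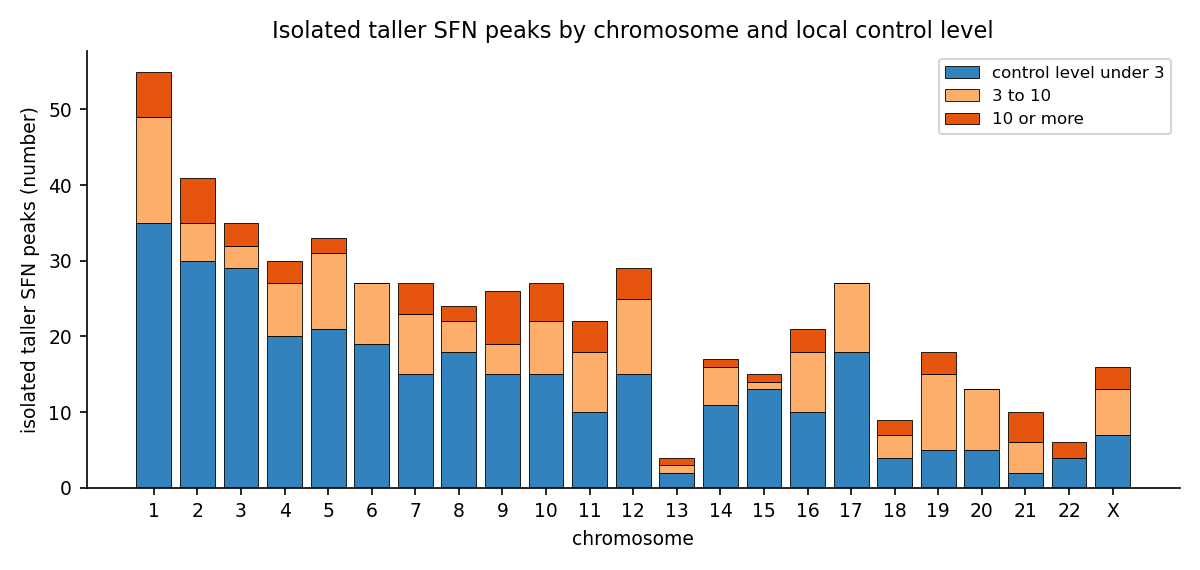
Number of isolated taller SFN peaks on each chromosome, stacked by local control level. Chromosome 1 holds 55 and chromosome 13 holds 4, and the share of the low-control part (blue) is largest on chromosomes 15 and 3 and smallest on chromosome 21.

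Some of these peaks lay at the outermost called positions. There were 4 that started below position 20000, on chromosomes 1, 4, 5 and 18, and 14 that were the last peak of their chromosome in either list. Their heights ran from 10 to 141 tags with a median of 38, and 11 of the 18 overlapped a vehicle peak. The share that overlapped was 12.6% over all 532 peaks, 27.1% at 30 to 49 tags and 70.2% at 50 tags or more. Among them were chr5:9903-11880 with 141 tags and 53 in vehicle, chr12:133841428-133841958 with 133 and 49, and chrX:155259904-155260505 with 120 and 41. Of the 11, 10 had a lower scaled height in SFN than in vehicle, with chr4:9949-10271 the exception. A lower scaled height in SFN was also the usual case among all 67 shared peaks, of which only 13 were higher in SFN.

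The peaks were mostly far apart, which follows in part from their number and from the selection on spacing. Other SFN peaks lying between them were not counted here. The median gap between neighbours among the 532 was 3220 kb, and 24 of 509 neighbouring pairs had a gap of 50 kb or less, 7 of these with both at a control level under 3. The pairs included both TKT peaks, both peaks at the mu-class glutathione S-transferase cluster, and chr14:106091318-106091598 with chr14:106110099-106110384, whose gap was 18501 bp.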

How the data were processed

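NRF2-bound DNA of BEAS-2B cells was sequenced from 2 SFN and 2 vehicle samples, beside 1 IgG sample, grouped by their titles. The submitters' processing notes name BWA, MACS2, CASAVA 1.4 and build hg19. Each treatment has 1 deposited peak list. Per the file headers, the caller was MACS 2.1.0.20140616, run against a control whose name carries the words input and IgG, at a q cutoff of 0.05 and with at most 1 tag per position. The sources used here do not say whether samples were pooled. Values of the IgG sample alone were not used here.

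Per the file headers, 7448599 of 23090154 SFN tags and 1459665 of 11377334 vehicle tags were kept, so the lists differ in usable depth, and the limit caps tall peaks. The signal is the tag pileup the authors deposited, the fold over the local control is the authors' deposited ratio, and the q values are deposited as −log10. From these, the local control level was computed as (pileup + 1)/fold − 1 over the tags expected genome-wide, 0.422 in the SFN list. The caller lets it fall no lower than the genome average.

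Overlap needed 1 bp. Intervals are exact (Clopper-Pearson, 95%, scipy 1.17.1). No test was run, since peaks are not replicates. The selection and overlap steps were tested on simulated data. Members, gene lists and the limits of 3 and 10 on the control level were chosen with earlier results of these data known. Peaks were named by rule: the 25 tallest, the 25 tallest at a control level under 3, and shared peaks at that level and, above it, the 10 tallest; examples were taken from these, and 1 of them is not reported here. Gene names rest on textbook places of known NRF2 targets, and an hg19 genome or annotation was not used here. Heights, gaps, q values, overlaps and control limits were varied as alternatives.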

Additional observations from a re-analysis of the deposited data

How the results depend on the processing

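The 532 peaks became 302 with a minimum of 15 tags and 193 with 20, by construction, and stayed between 460 and 725 in the 6 other settings of height, gap, q and chromosomes. The share overlapping a vehicle peak, 12.6%, was 9.52% with a minimum of 8 tags, 20.5% with 15 and 31.1% with 20. It stayed between 9.96% and 13.8% in 7 other settings of gap, q and overlap and was 68 of 486 with a stricter q for SFN peaks. At a control level under 3 it was 6.81%, and 6.34% and 6.93% with limits of 1.5 and 5. The median vehicle height at shared places, 13 tags, was 6 at a control level under 3, an alternative added after the data were seen. Of the 25 peaks beside listed genes, 21 to 25 were also selected in each setting of the selection, counted as the same peaks. No paired analysis was possible because the lists, 1 per treatment, hold nothing per sample, and for the same reason no replicate could be left out. The 1459665 kept vehicle tags limit what a missing vehicle peak can say.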
